A study of Mus musculus with 195 samples.

Results

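The 46 genes described here act in G2 phase and mitosis and were taken as a list of symbols. The rule used no measured value, but the list was drawn up with earlier results of these data known. All 46 were among the 19736 genes in the deposited table of genes. Their transcripts were counted by BATSeq, which reads a cell barcode, a unique molecular identifier and the polyadenylation site of each captured mRNA, in single mouse cells of the 46C line, an embryonic stem cell (ESC) line derived from E14tg2a that carries a Sox1-GFP reporter. ESC-2i cells were grown with 1 µM PD0325901, a MEK inhibitor, 3 µM CHIR99021, a GSK3 inhibitor, and 10 ng/ml LIF. ESC-FCS cells were grown with 10% fetal bovine serum and 10 ng/ml LIF. Neural stem cells (NSC) were made from ESCs and kept with N2 and B27 supplements, EGF and bFGF. In every population the single cells were sorted for DNA content and size, so that small cells in G0/G1 were taken, and 48 cells per population were processed in 2 library batches of 24. The libraries made apart from these were 48 ESC-FCS control cells and 1 pool of 48 ESC-FCS cells, and 2 pools of 48 ESC-2i cells whose RNA was purified on beads after lysis. The labels name no replicate cultures, so each population was 1 sample and no test was made between populations.

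Most of these genes are transcribed in a wave that begins late in S phase and peaks in G2 and mitosis. In resting and G1 cells the DREAM complex represses them at a promoter element called the CHR, and B-MYB and FOXM1 activate them later with the MuvB core. At mitotic exit the anaphase-promoting complex destroys many of the proteins. Because the gate was set on G0/G1 cells, their transcripts here are those present in small cells with unreplicated DNA, as far as the sort separated them.

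Of the 48 cells in each population, those in the table of genes with at least 1000 molecules on genes were used, which left 33 ESC-2i cells with a median of 10864 molecules, 33 ESC-FCS cells with a median of 6375 and 41 NSC with a median of 3282. The control cells kept numbered 42, the ESC-FCS pool held 179155 molecules and the ESC-2i pools held 479483 and 494799. Of 10 markers of embryonic stem cells, all had molecules in both ESC populations and 7 had none in NSC, where the list summed to 1.25 molecules per 10000 against 24.5 in ESC-2i and 28.0 in ESC-FCS. Conversely, 10 neural stem cell markers summed to 52.8 per 10000 in NSC, 1.98 in ESC-2i and 1.72 in ESC-FCS, although Pax6 had no molecule in NSC. No pair of libraries held identical values. The barcode combinations of all 48 control cells were also used by main cells, in libraries made apart, and none was shared within the main dataset.

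Promoters were read from RefSeq (GRCm38.p6) as 250 bases before to 50 bases after the annotated start, and 39 of the 46 genes had an entry. Ccna2, Tpx2, Aurkb, Incenp, Smc4, Kif20a and Dlgap5 had none. The CHR letters TTTGAA, searched on both strands, stood in 30 of the 39 promoters (76.9%), against 20.2% of 27025 genes. With the motif centred within 50 bases of the start the shares were 66.7% and 5.94%. The CCAAT box, bound by NF-Y, was in 79.5% of the members' promoters and 41.1% of all, and both motifs were in 69.2% and 7.97%. TTTAAA, a known variant of the CHR, was in 23.1% and 14.9%. A match in the letters is a description of the promoter and does not show binding in these cells. The windows below hold the CHR match of 10 members the results turn on, 30 bases each, written 5′ to 3′ on the gene's strand. Capitals mark the match, read as TTTGAA or, on the opposite strand, as TTCAAA. They are Cdc20 and Ube2c, with the most molecules, some of the members that differed at least 2-fold between the ESC populations (Cks1b, Top2a, Aurka, Ttk and Racgap1), Cdk1, and Bub3 and Ckap5, which were at like or higher levels in NSC. Of the others that differed 2-fold, Dlgap5 had no entry, and there is no window for Bub1b or Nusap1. The windows were taken among members with a match, so they do not show how often members that differ hold it.
Cdc20, chr4:118437344-118437373, minus strand: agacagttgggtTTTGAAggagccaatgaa
Ube2c, chr2:164769888-164769917, plus strand: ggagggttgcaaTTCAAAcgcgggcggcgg
Cdk1, chr10:69352910-69352939, minus strand: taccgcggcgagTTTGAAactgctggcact
Cks1b, chr3:89418291-89418320, minus strand: gcgggcggtgtgTTTGAAagcgaggccaaa
Top2a, chr11:99024195-99024224, minus strand: gctagataaaggTTCAAAtgaaactaggga
Aurka, chr2:172370521-172370550, minus strand: aaaaggagaaccTTTGAAttgtaacggctg
Ttk, chr9:83834684-83834713, plus strand: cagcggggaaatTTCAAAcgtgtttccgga
Racgap1, chr15:99651634-99651663, minus strand: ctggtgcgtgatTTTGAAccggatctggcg
Bub3, chr7:131560315-131560344, plus strand: gagccgttggcgTTCAAAatcagccaatga
Ckap5, chr2:91526705-91526734, plus strand: gcccacagctctTTCAAAcggaccaataaa

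The summed transcripts of the 46 genes were, in the single cells of the main dataset, highest in ESC-FCS, intermediate in ESC-2i and lowest in NSC. The libraries made apart did not show this order of the ESC cultures. A level is the number of molecules per 10000 on genes when the cells of a population are summed, with an exact 95% Poisson interval. Each mRNA end gives 1 molecule whatever the transcript's length, so levels were not divided by length. The sum was 30.5 per 10000 in ESC-2i (interval 28.8 to 32.4, 1125 molecules), 45.3 in ESC-FCS (42.5 to 48.1, 1026 molecules) and 12.7 in NSC (11.0 to 14.6, 193 molecules). These intervals cover counting error only and not the variation between cells or cultures. By library batch the level was 28.5 and 32.3 in ESC-2i, 45.9 and 44.4 in ESC-FCS, and 14.3 and 11.0 in NSC, so the order of the populations was the same in each pair of batches. ESC-FCS was 1.48-fold above ESC-2i (1.36 to 1.61), and 1.37- to 1.61-fold over the 4 pairs of batches, but 3.06-fold when scaled by ERCC molecules. NSC was 2.40-fold below ESC-2i (2.06 to 2.81; 2.00 to 2.95 over batch pairs) and 3.56-fold below ESC-FCS (3.05 to 4.18; 3.11 to 4.19), and by ERCC molecules it was at 0.339 of ESC-2i and 0.111 of ESC-FCS.

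Single cells of the 3 populations overlapped. The level per cell ran from 11.0 to 80.8 per 10000 in ESC-2i with a median of 27.0, from 6.51 to 102 in ESC-FCS with a median of 46.3, and from 0 to 56.1 in NSC with a median of 9.30. In NSC, 5 members (Bub1, Kif20a, Kif23, Kif2c and Dlgap5) had no molecule, and 5 of the 41 cells held no molecule of any member. The 5 highest NSC carried 50.8% of that population's member molecules, against 31.7% for the 5 highest ESC-2i cells and 20.1% for the 5 highest ESC-FCS cells. The highest ESC-2i cell held 124 member molecules of 39 genes, and the highest NSC held 37 molecules of 23 genes. A median of 19 members was seen per ESC-2i cell, 17 per ESC-FCS cell and 2 per NSC. When each cell was thinned to 2000 molecules, which left out 1 ESC-FCS cell and 8 NSC, these medians were 4.83, 8.03 and 1.57.

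**Figure D1:**
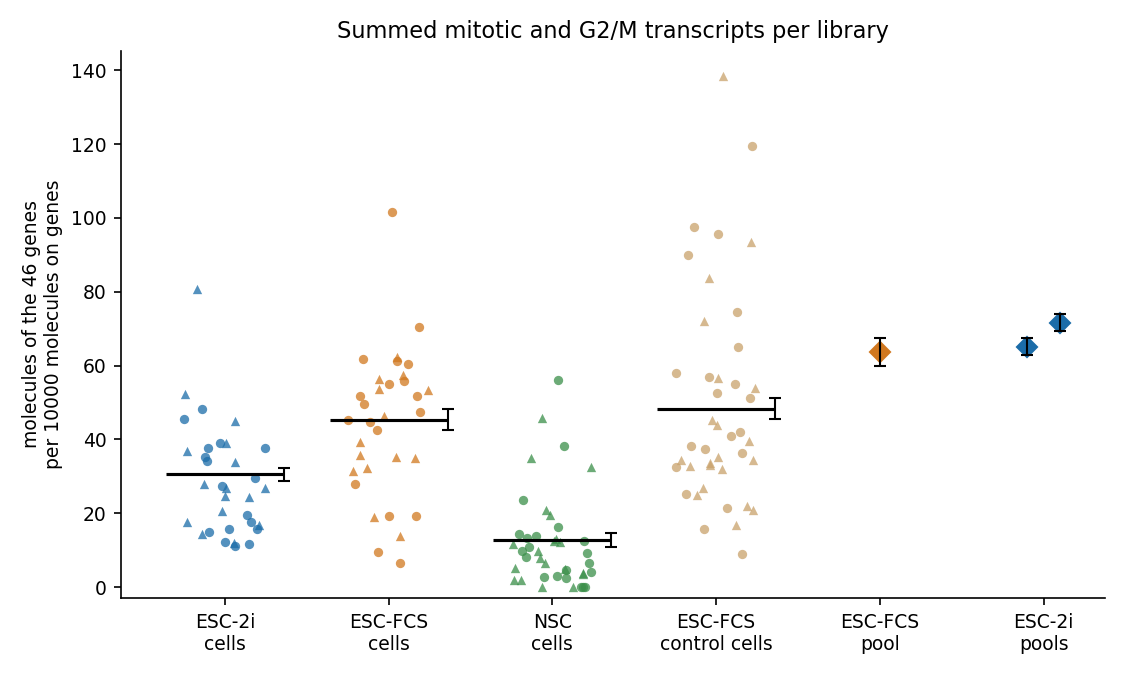
Summed molecules of the 46 genes per 10000 molecules on genes (vertical axis) in each library: 1 point per cell for ESC-2i, ESC-FCS, NSC and the ESC-FCS control cells, and 1 diamond per pool, with circles for library batch 1, triangles for batch 2, and horizontal lines and bars for the pooled level and its exact 95% Poisson interval. The lines stand at 30.5, 45.3, 12.7 and 48.2 with wide overlap of single cells, and the pools lie at 63.6 (ESC-FCS) and at 65.1 and 71.6 (ESC-2i).

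Gene by gene, ESC-FCS and ESC-2i were compared over genes with at least 20 molecules in the 2 populations together, and a gene was set apart at a 2-fold difference in pooled level. Of the 37 members compared, 7 were higher in ESC-FCS, where 8.17% of all 5007 genes compared were, and 1 was lower, where 14.5% of all genes were. The other 29 lay within 2-fold. The median ratio of the members was 1.52 and 28 of 37 were above 1, beside a median of 0.956 over all genes. The 7 higher members were Cks1b, Ttk, Aurka, Bub1b, Dlgap5, Nusap1 and Top2a, and the lower one was Racgap1. All 8 kept their direction in the 4 pairs of library batches, and their exact binomial 95% intervals left out a ratio of 1. Both use the same molecules by which these 8 were set apart, so neither is a separate support. The intervals cover counting error only. Scaling by the ERCC spike-ins in place of molecules on genes moved the median of all genes to a log2 ratio of 0.98, with 49.4% of genes higher and 3.44% lower, and then 28 members were higher and none was lower. Without the highest cell of each population, 10 members were higher: Aurka left the list, and Ccna2, Plk1, Cenpa and Hmmr joined it. Anln then took the place of Racgap1 as the lower one. With reads 12 were higher and Smc2 was the lower one. No share of all genes is given for the counts without the highest cells or with reads, so these stand without a background.

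Most of the members that could be compared were lower in NSC than in either ESC population, and Bub3 and Ckap5 were not. Of 28 members with at least 20 molecules in NSC and ESC-2i together, 19 were at least 2-fold lower in NSC, where 24.3% of all 4803 genes were, and none was higher, where 19.3% of all genes were. Their median was 3.16-fold lower and the median of all genes 1.04-fold lower. Against ESC-FCS, 19 of 24 were lower, where 18.4% of 3600 genes were, and none was higher, where 20.9% were, with a median 3.91-fold lower. The NSC libraries are shared by these 2 comparisons. By ERCC molecules 22 of 28 and 23 of 24 members were lower in NSC, with 31.1% and 61.1% of all genes lower. Many NSC counts were 0 to 3 molecules, so single ratios have wide intervals. For the summed members the lower and upper quartiles of the cells were 3.44 and 13.8 per 10000 in NSC. They were 16.8 and 37.6 in ESC-2i, and 32.2 and 55.7 in ESC-FCS. Whether transcripts were fewer in each NSC or fewer NSC were past the start of G2 transcription was not tested.

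**Figure D2:**
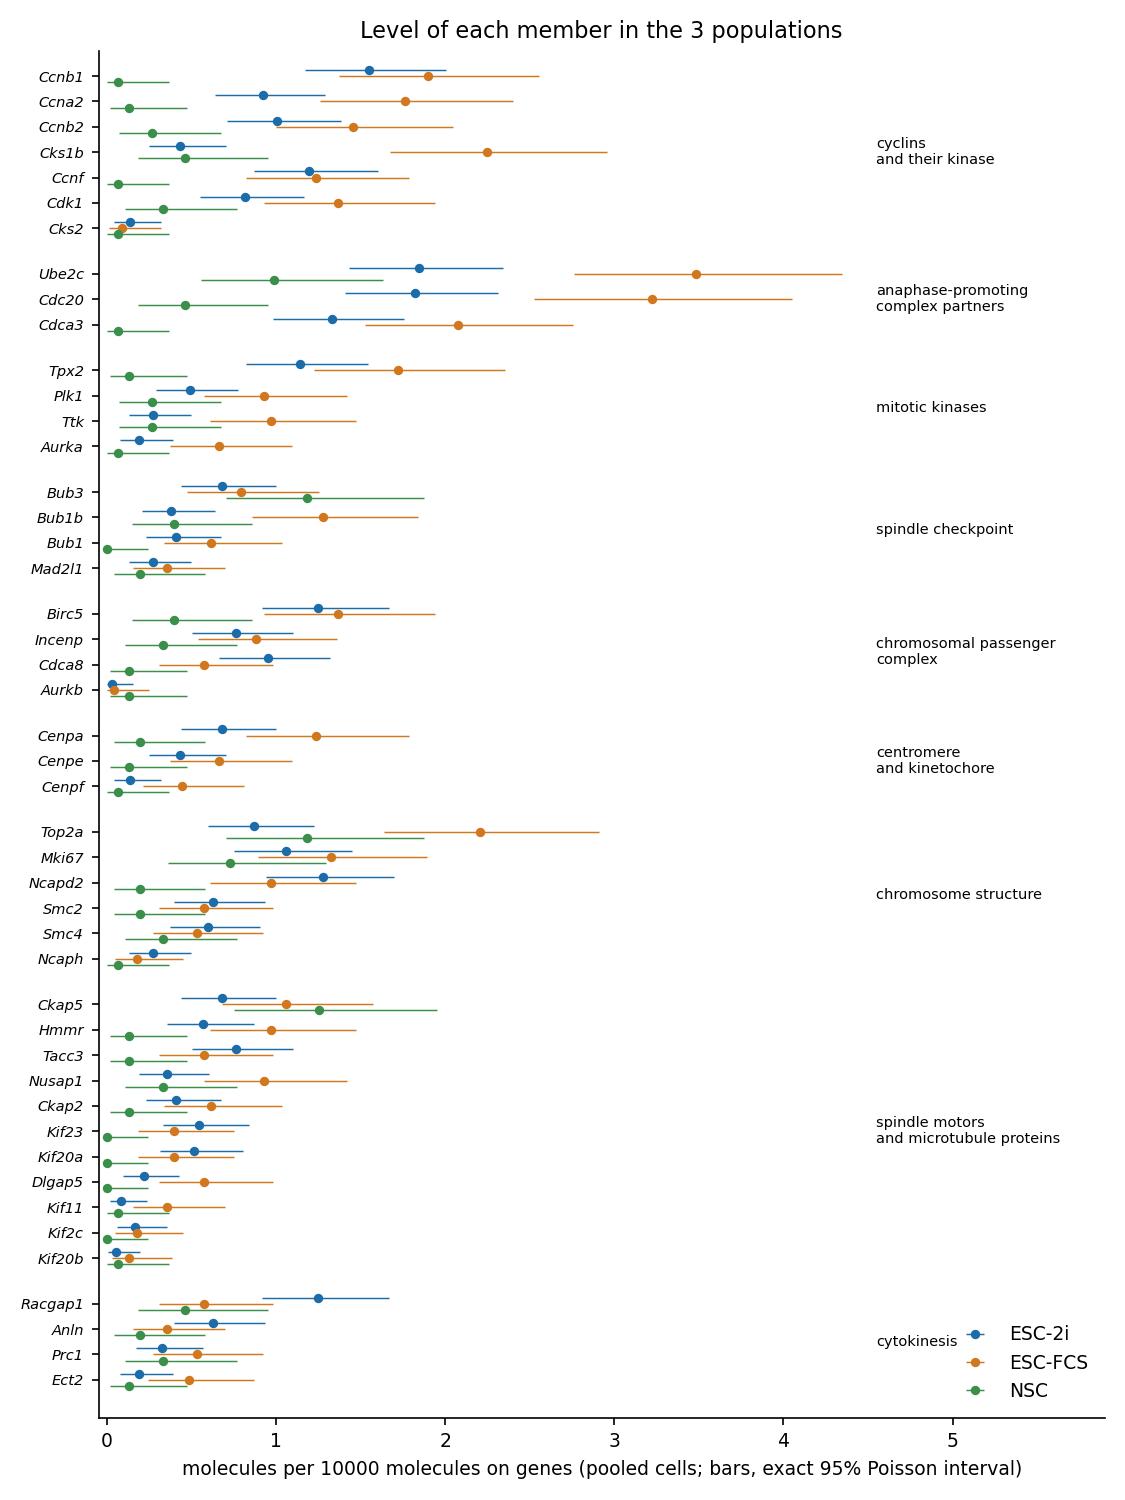
Pooled level of each member in ESC-2i, ESC-FCS and NSC, in molecules per 10000 molecules on genes (horizontal axis), with exact 95% Poisson intervals as bars. Cks1b stands at 0.434, 2.25 and 0.461, while Bub3 and Ckap5 stand at 1.19 and 1.25 in NSC, above most other members there.

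The following levels are per 10000 in ESC-2i, ESC-FCS and NSC in this order, with the number of the 33, 33 and 41 cells in which a molecule was seen. Because depth differed, numbers of cells are not compared between populations unless thinned to 2000 molecules. The cyclins, their kinase and its Cks partners summed to 6.05 (5.29 to 6.90), 10.1 (8.79 to 11.5) and 1.38 (0.856 to 2.11). Ccnb1, the cyclin that drives entry into mitosis with Cdk1, was at 1.55, 1.90 and 0.0658 and was seen in 23, 19 and 1 cells. Its lowest, median and highest cells were at 0, 1.31 and 5.86 in ESC-2i and at 0, 1.11 and 5.24 in ESC-FCS. A single NSC held its only molecule there, at 3.60. Thinned, 23.1%, 26.6% and 2.18% of cells had Ccnb1. The 2 ESC populations thus overlapped over nearly their whole range for Ccnb1, with a ratio of 1.23 (0.805 to 1.85), and NSC lay 23.5-fold below ESC-2i (4.05 to 944). Ccnb2, a second B-type cyclin, was at 1.00, 1.46 and 0.263 in 18, 19 and 3 cells. Ccna2, which acts from S phase into prophase, was at 0.923, 1.76 and 0.132 in 17, 23 and 2 cells. Ccnf, the F-box cyclin that does not activate a kinase, was at 1.19, 1.24 and 0.0658 in 20, 13 and 1 cells. Cdk1 itself was at 0.814, 1.37 and 0.329 in 14, 16 and 5 cells. None of these 4 passed 2-fold between the ESC populations, and all 4 were at least 2-fold lower in NSC than in each.

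Cks1b, a small Cdk-binding protein also required by the SCF-Skp2 ligase that degrades p27, differed most between the ESC populations. It was at 0.434 per 10000 in ESC-2i (16 molecules in 10 cells) and 2.25 in ESC-FCS (51 molecules in 21 cells), a ratio of 5.18 (2.91 to 9.73). The library batches of ESC-2i were at 0.516 and 0.361 and those of ESC-FCS at 1.84 and 2.80, which did not overlap. In NSC it was at 0.461 (7 molecules in 7 cells), 1.06-fold the ESC-2i level (0.369 to 2.73) and 4.88-fold below ESC-FCS (2.21 to 12.7). The control cells stood between the ESC populations at 1.08. Cks2, its paralog, had 8 molecules in the 3 populations and was not compared among them. The annotation holds copies of Cks1b, Ccnb1 and Ccnb2 elsewhere in the genome (Cks1brt and pseudogenes), and reads from such copies may not have been separated.

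The partners of the anaphase-promoting complex held the most molecules of any group for its size: 3 genes summed to 5.00 (4.30 to 5.77), 8.78 (7.60 to 10.1) and 1.51 (0.960 to 2.27). Ube2c, the E2 enzyme that starts ubiquitin chains for the complex, was at 1.85, 3.49 and 0.988 in 27, 27 and 13 cells. Its lowest, median and highest cells were at 0, 1.62 and 4.56 in ESC-2i, at 0, 2.57 and 17.1 in ESC-FCS, and at 0, 0 and 6.66 in NSC. The highest ESC-FCS cell thus lay above every ESC-2i cell, a comparison limited by the difference in depth. Thinned shares of cells were 29.2%, 48.3% and 17.7%. Cdc20, the activator that brings substrates to the complex in mitosis, was at 1.82, 3.22 and 0.461 in 21, 22 and 4 cells. Cells were at 0, 0.978 and 7.36 in ESC-2i, at 0, 1.75 and 16.9 in ESC-FCS and at 0, 0 and 6.10 in NSC (lowest, median and highest), and thinned shares were 26.5%, 37.6% and 5.76%. Cdca3, the trigger of Wee1 destruction at mitotic entry, was at 1.33, 2.07 and 0.0658 in 20, 19 and 1 cells. Its cells were at 0, 0.771 and 4.39 in ESC-2i, at 0, 1.28 and 11.4 in ESC-FCS, and 1 NSC was at 3.33, with thinned shares of 21.5%, 28.9% and 2.02%. The ratios of ESC-FCS to ESC-2i were 1.77 for Cdc20 (1.25 to 2.50), 1.89 for Ube2c (1.35 to 2.65) and 1.56 for Cdca3 (1.02 to 2.37), all within 2-fold. In NSC, Cdc20 was 3.95-fold (1.81 to 10.2) and Cdca3 20.2-fold (3.46 to 814) below ESC-2i, whereas Ube2c was 1.87-fold below (1.06 to 3.52) and stayed within 2-fold.

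The mitotic kinases and Tpx2 summed to 2.09 (1.65 to 2.61), 4.28 (3.47 to 5.22) and 0.724 (0.362 to 1.30). Aurka, the centrosome and spindle kinase, was at 0.190, 0.662 and 0.0658 in 6, 12 and 1 cells, 3.48-fold higher in ESC-FCS than in ESC-2i (1.34 to 10.1) on 15 and 7 molecules. With reads in place of molecules its log2 ratio was 0.54, within 2-fold, and without the highest cell of each population it had under 20 molecules and was not compared. Ttk, the kinase that starts spindle checkpoint signalling, was at 0.271, 0.971 and 0.263 in 9, 16 and 4 cells, 3.58-fold higher in ESC-FCS (1.62 to 8.46). Plk1, which acts from mitotic entry to cytokinesis, was at 0.489, 0.926 and 0.263 in 10, 14 and 3 cells and passed 2-fold, among the main populations, in NSC against ESC-FCS alone, 3.52-fold lower (1.19 to 14.1). Tpx2, the spindle protein that activates Aurka, had a ratio of 1.51 between ESC-FCS and ESC-2i (0.950 to 2.39), within 2-fold. It was at 1.14, 1.72 and 0.132 in 22, 18 and 2 cells, and its cells lay at 0, 1.14 and 3.91 in ESC-2i, 0, 1.07 and 8.57 in ESC-FCS and 0, 0 and 1.53 in NSC (lowest, median and highest). Thinned shares for Tpx2 were 19.5%, 29.2% and 1.69%, and NSC lay 8.66-fold below ESC-2i (2.25 to 73.8).

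The spindle checkpoint genes did not follow a common order. They summed to 1.74 (1.34 to 2.22), 3.04 (2.37 to 3.85) and 1.78 (1.17 to 2.59), so NSC and ESC-2i intervals overlapped. Bub1b, which encodes BubR1 of the mitotic checkpoint complex, was at 0.380, 1.28 and 0.395 in 12, 21 and 5 cells, with 3.37-fold more in ESC-FCS than in ESC-2i (1.72 to 6.89). Bub3, the WD40 partner that BubR1 and Bub1 need at kinetochores, was at 0.679, 0.794 and 1.19 in 18, 12 and 15 cells. Its 18 molecules in NSC made 1.75 times the ESC-2i level (0.898 to 3.33), an interval that holds 1. Bub1, a kinase of the kinetochore, was at 0.407 and 0.618 in 12 and 13 cells and had no molecule in NSC, where the floor of 3 counts is 0.198. Mad2l1, the checkpoint protein that binds Cdc20, was at 0.271, 0.353 and 0.198 in 7, 8 and 3 cells and had under 20 molecules in each pair.

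The chromosomal passenger complex was at like levels in the ESC populations: 2.99 (2.45 to 3.60), 2.87 (2.21 to 3.65) and 0.988 (0.553 to 1.63) in NSC. Birc5, or survivin, was at 1.25, 1.37 and 0.395 in 21, 19 and 4 cells. Its lowest, median and highest cells were at 0, 0.920 and 6.52, at 0, 1.07 and 4.60, and at 0, 0 and 4.58, with thinned shares of 19.9%, 25.2% and 6.19%, so the ESC populations overlapped throughout. Incenp, the scaffold of the complex, was at 0.760, 0.882 and 0.329 in 18, 16 and 5 cells. Cdca8, or borealin, was at 0.950, 0.573 and 0.132 in 21, 9 and 2 cells, with a ratio of 0.604 (0.293 to 1.17) between ESC-FCS and ESC-2i. Aurkb, the kinase of the complex, had only 4 molecules. The 3 centromere and kinetochore genes summed to 1.25 (0.914 to 1.67), 2.34 (1.75 to 3.06) and 0.395 (0.145 to 0.860). Cenpa, the centromeric histone H3 variant, was at 0.679, 1.24 and 0.198 in 17, 15 and 3 cells. Cenpe, a kinesin of the kinetochore, was at 0.434, 0.662 and 0.132 in 9, 11 and 2 cells, and Cenpf, which coats kinetochores in prophase, had 16 molecules in all.

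Among the 6 genes of chromosome structure, Top2a passed 2-fold between the ESC populations and the condensin subunits did not. The group summed to 4.70 (4.02 to 5.45), 5.78 (4.83 to 6.86) and 2.70 (1.94 to 3.66). Top2a, the topoisomerase that untangles sister DNA, was at 0.869, 2.21 and 1.19 in 20, 20 and 6 cells, 2.54-fold higher in ESC-FCS (1.60 to 4.09). Its cells were at 0, 0.686 and 2.89 in ESC-2i, at 0, 1.85 and 8.19 in ESC-FCS, and at 0, 0 and 18.3 in NSC, with thinned shares of 14.0%, 32.6% and 13.8%. In NSC the pooled level of Top2a, 1.36 times that of ESC-2i (0.721 to 2.50), came from 6 cells. At equal depth the shares of cells with Top2a were alike in ESC-2i and NSC, at 14.0% and 13.8%. Mki67, the surfactant of mitotic chromosomes, was at 1.06, 1.32 and 0.724 in 18, 17 and 7 cells. Mki67 cells lay at 0, 0.771 and 3.74, at 0, 0.675 and 5.53, and at 0, 0 and 6.06, with thinned shares of 17.0%, 22.9% and 11.2%, and no pair of these populations differed 2-fold. The condensin subunits Ncapd2, Smc2 and Smc4 were at 1.28, 0.971 and 0.198, at 0.624, 0.573 and 0.198, and at 0.597, 0.529 and 0.329, with ESC-FCS to ESC-2i ratios of 0.761 (0.437 to 1.29), 0.918 (0.427 to 1.89) and 0.886 (0.400 to 1.87). They were seen in 22, 13 and 3 cells, in 15, 12 and 2 cells, and in 15, 10 and 5 cells. Ncaph, the subunit that closes the condensin ring, had 15 molecules.

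The 11 spindle motors and microtubule proteins summed to 4.34 (3.70 to 5.07), 6.18 (5.20 to 7.29) and 2.11 (1.44 to 2.97). Nusap1, a microtubule bundler, was at 0.353, 0.926 and 0.329 in 9, 16 and 3 cells, 2.63-fold higher in ESC-FCS (1.25 to 5.71). Dlgap5, which steadies kinetochore fibres, was at 0.217 and 0.573 in 6 and 9 ESCs with none in NSC, a 2.64-fold difference (1.01 to 7.35). Ckap5, the microtubule polymerase chTOG, was at 0.679, 1.06 and 1.25 in 20, 16 and 12 cells, and NSC held 1.84 times the ESC-2i level (0.960 to 3.49). Ckap5 and Bub3 were the members with the most molecules in NSC, at 19 and 18, along with Top2a at 18. Tacc3, the partner that Ckap5 binds at the spindle, was instead at 0.760, 0.573 and 0.132 in 18, 10 and 2 cells, 5.77-fold lower in NSC than in ESC-2i (1.46 to 50.0). Hmmr, a spindle assembly protein, was at 0.570, 0.971 and 0.132 in 14, 12 and 2 cells, and Ckap2, a microtubule stabilizer, at 0.407, 0.618 and 0.132 in 12, 11 and 2 cells. The kinesins of the central spindle Kif20a and Kif23 were at 0.516 and 0.397 and at 0.543 and 0.397 in the ESC populations, in 15 and 7 and in 11 and 8 cells, and neither had a molecule in NSC. With the floor of 3 counts in place of 0, Kif23 was 2.75-fold lower there than in ESC-2i. The exact interval from its counts begins at 2.04-fold. Kif11, the motor that separates spindle poles, had 12 molecules, Kif20b had 6 and the microtubule depolymerase Kif2c had 10 over these populations, too few to be compared among them.

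The sum of the 4 cytokinesis genes was 2.39 (1.92 to 2.94), 1.94 (1.41 to 2.61) and 1.12 (0.652 to 1.79), with overlapping intervals in the ESC populations. In the second set it was instead 4.66 in the control cells and 6.53 in the ESC-FCS pool against 3.05 in the ESC-2i pools. Racgap1, the centralspindlin subunit that recruits Ect2, was at 1.25, 0.573 and 0.461 in 18, 8 and 5 cells, 2.18-fold lower in ESC-FCS than in ESC-2i (1.16 to 4.39) and 2.71-fold lower in NSC than in ESC-2i (1.21 to 7.11). Without the highest cell of each population its log2 ratio between the ESC populations was -0.99, and with reads in place of molecules -0.82, both within 2-fold. With reads its log2 ratio of NSC over ESC-2i turned to 0.23. Anln, an actin-binding protein of the furrow, was at 0.624, 0.353 and 0.198 in 16, 4 and 3 cells. Prc1, the bundler of the central spindle, was at 0.326, 0.529 and 0.329 in 9, 8 and 3 cells. Ect2, the exchange factor for RhoA, was at 0.190, 0.485 and 0.132 in 6, 7 and 2 cells and had 18 molecules in the ESC populations, too few to be compared.

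The libraries made apart did not show the order of the ESC cultures seen in the main cells. The summed members were at 48.2 per 10000 in the ESC-FCS control cells, 1.07 times the main ESC-FCS cells (0.978 to 1.16). The ESC-FCS pool was at 63.6 (59.9 to 67.4) and the ESC-2i pools were at 65.1 (62.8 to 67.4) and 71.6 (69.2 to 74.0). The ESC-FCS pool was at 0.930 times the ESC-2i pools (0.872 to 0.990) and the control cells were at 0.705 times these pools (0.661 to 0.752), so the 1.48-fold excess of ESC-FCS in the main cells was not seen in this second set. The ESC-2i pools were 2.24-fold above the ESC-2i cells (2.10 to 2.39) and the ESC-FCS pool 1.32-fold above the control cells (1.21 to 1.43). The ESC-2i pools differed from the ESC-2i cells in lysis and clean-up. The pools carry the label of the same cell cycle stage, but the sources used here do not make clear whether their cells passed the same gate. With the control cells and the pool summed, 44 members could be compared with the ESC-2i pools: 11 were at least 2-fold higher in ESC-FCS, where 19.4% of 8569 genes were, and 13 lower, where 35.4% were. All genes had a median log2 ratio of -0.43 in this set, and relative to that median 13 members were higher and 5 lower. The share of all genes past 2-fold after that shift is not given, so the counts of 13 and 5 stand without a background. Of 6 housekeeping genes 4 were at least 2-fold higher, with a median ratio of 5.31, so the libraries also differed beyond these members, and the part of this in the members' ratios was not tested.

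The 11 members higher in ESC-FCS in the second set were Ccnb2, Cdk1, Cks1b, Ube2c, Bub1, Mad2l1, Smc2, Ncaph, Ckap2, Ect2 and Anln, and the 13 lower ones were Ccnf, Cdca3, Plk1, Aurka, Tpx2, Bub3, Incenp, Cdca8, Cenpe, Ncapd2, Mki67, Kif20b and Ckap5. Of 37 members compared in both sets, 15 had the same direction. The share of all genes with the same direction in both sets was not computed. Over all genes the median log2 ratio was -0.43 in the second set and -0.065 in the main cells. The count of 15 is therefore not read as a result about the members. Cks1b was the 1 member past 2-fold in the same direction in both, at 16.6-fold (7.47 to 43.5), with 7 and 0 molecules in the ESC-2i pools against 24 in the control cells and 24 in the ESC-FCS pool. Aurka was past 2-fold in opposite directions, 3.48-fold higher in the main cells and 6.07-fold lower in the second set (3.46 to 11.6). Ect2 was 5.24-fold (3.51 to 7.96), Smc2 4.40-fold (3.01 to 6.52), Anln 4.10-fold (2.68 to 6.38) and Ccnb2 3.10-fold (2.40 to 4.02) higher, and Ccnf was 5.59-fold lower (3.94 to 8.16). Several values turned on 1 of the ESC-2i pools. Without pool 2 the log2 ratio of Cks1b was 3.03 in place of 4.05, that of Ckap5 -0.24 in place of -1.03 and that of Kif20b -0.48 in place of -1.28. Bub1 was at 1.73 without pool 1 and 3.89 without pool 2, in place of 2.42, since the pools held 5 and 23 molecules. Cdk1 was at 2.11 without pool 1 in place of 1.32.

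**Figure D3:**
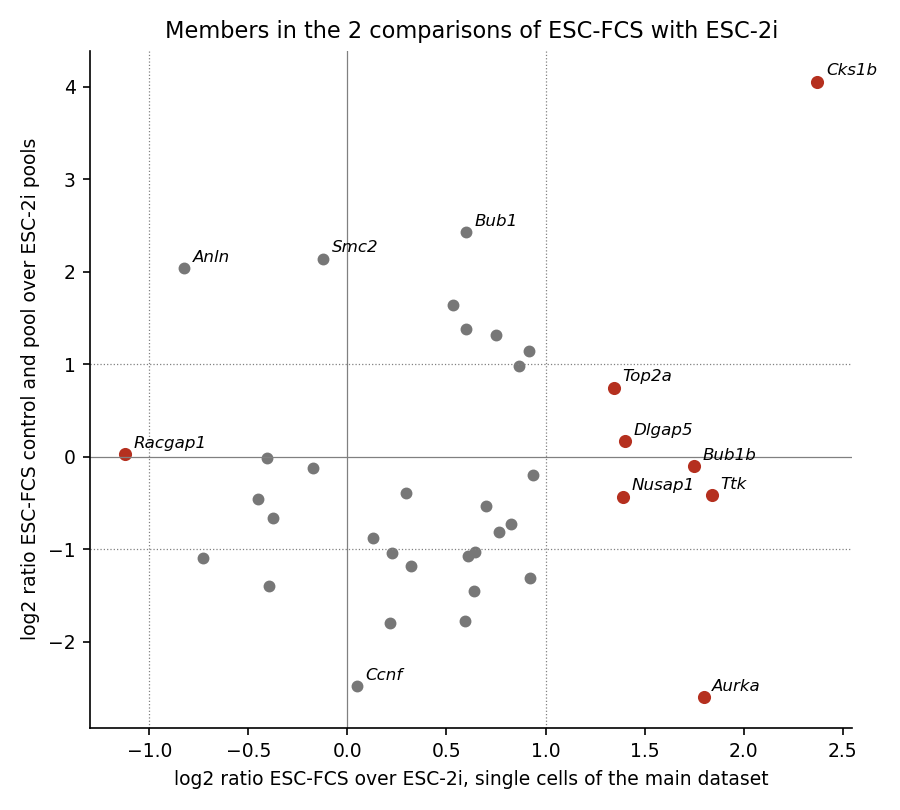
Log2 ratio of ESC-FCS over ESC-2i for the 37 members compared in both sets: main single cells on the horizontal axis, control cells and pool against ESC-2i pools on the vertical axis, with dotted lines at 2-fold and red points past 2-fold in the main cells. Cks1b lies past 2-fold in both sets, Aurka lies at the lower right, and 15 of the 37 points share a sign. Over all genes the median log2 ratio was -0.43 in the second set, and the share of all genes that share a sign was not computed.

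The summed members differed between the cells of 1 population by more than counting allows. The variance of their molecules over cells, divided by that of Poisson counting at each cell's depth, was 9.28 for ESC-2i, 5.00 for ESC-FCS and 6.08 for NSC. Without the single highest cell the ESC-2i value was 5.72, and in the second ESC-FCS batch alone it was 2.52. In the same order of populations the summed S-phase genes had ratios of 9.13, 4.46 and 8.83. The summed housekeeping genes had 7.20, 2.77 and 2.72, so a spread above counting was not particular to the members. The members' squared coefficient of variation above counting was 0.259, 0.101 and 1.29. It was 0.0335, 0.0159 and 0.0801 for 95 other G2/M genes and 0.120, 0.0721 and 0.931 for 42 S-phase genes. The list of other G2/M genes also holds subunits of the anaphase-promoting complex and of cohesin, and its value was not split between these and the rest. For 6 housekeeping genes the squared coefficient of variation above counting was 0.0454, 0.0162 and 0.0361. For single genes the ratio of variances cannot be set against that of the sum, since it grows with the number of molecules per cell. Over the 25 members with at least 20 molecules in ESC-2i the median of the same ratio was 1.27, where the median of all genes was 1.13, and over the 22 in ESC-FCS it was 1.15, where all genes were at 1.15. Cdc20 had the highest value in both, 3.04 in ESC-2i, above 98.3% of genes, and 2.17 in ESC-FCS, above 93.7%.

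Most members correlated positively with the sum of the others across the cells of each ESC population. Each member's level was set against the sum of the other 45, and Spearman's correlation was above 0 for 21 of 25 members in ESC-2i (median 0.32, 33 cells) and for 22 of 22 in ESC-FCS (median 0.25, 33 cells). The share of all genes above 0 against such a sum was not computed. These counts thus have no background and are not read as particular to the members. Cenpa in ESC-2i was highest at 0.60 and Cdc20 in ESC-FCS at 0.55, while Bub3 in ESC-2i was at -0.18 and Ckap5 in ESC-FCS at 0.06. Against the sum of the other G2/M genes the members' sum had a Spearman correlation of 0.80 over ESC-2i cells, 0.65 over ESC-FCS cells and 0.46 over NSC. The S-phase list gave 0.45, 0.17 and 0.29, the housekeeping list 0.08, 0.00 and 0.30, and the depth of the cell 0.33, 0.17 and -0.05. These correlations describe cells that share a culture, a library and the denominator of all molecules, and no test was made of them.

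**Figure D4:**
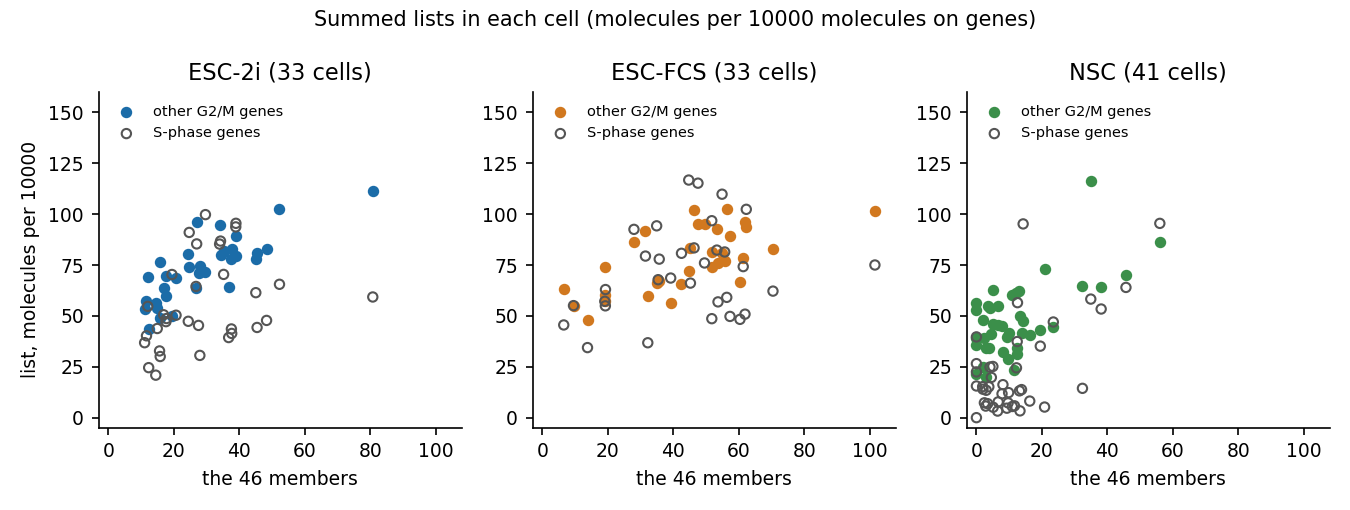
Summed levels in each cell, in molecules per 10000: the 46 members on the horizontal axis and, on the vertical axis, the other G2/M genes (filled) and the S-phase genes (open), with 1 panel each for ESC-2i (33 cells), ESC-FCS (33) and NSC (41). The filled points climb along the members' level most clearly in ESC-2i, where the Spearman correlation is 0.80.

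Few members were called variable on their own. The test of Brennecke and colleagues asks whether a gene's squared coefficient of variation exceeds the technical value fitted on ERCC spike-ins plus 0.25, over genes with a normalized mean above 0.5, with Benjamini-Hochberg adjustment over all genes tested and a call at an adjusted p under 0.1. Of 25 members tested in ESC-2i, none was called, where 0.608% of 3616 genes were called. There 2 members, Cdk1 and Cdc20, had an unadjusted p under 0.05, and the lowest adjusted p among members in the Brennecke test was 0.634. In ESC-FCS, 1 of 18 members was called, where 3.36% of 2026 genes were. This was Nusap1, with a squared coefficient of variation of 7.14 beside a technical 1.87 and an adjusted p of 3.80e-08 in the Brennecke test. Its normalized mean was 0.754, in the low range where simulated unvarying genes were called above the nominal rate. The call rests on 21 molecules in 16 cells, of which 2 were in the shallowest cell, with 1079 molecules. Without that cell Nusap1 fell under the limit on the mean and was not tested, and Cdc20 was called instead with an adjusted p of 0.0342 in the same Brennecke test. No member reached the limit in NSC, where 10.7% of 1157 genes were called.

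Other genes of the cell cycle gave a background for the members. Of 95 other G2/M genes, 54 were compared between the ESC populations, with a median ratio of 1.08. In ESC-FCS, 5 were higher (9.26%) and 5 lower (9.26%), where 8.17% and 14.5% of all genes were. Wee1, the kinase that restrains Cdk1, was 3.25-fold higher in ESC-FCS (1.56 to 7.13). Cenpn was 2.50-fold (1.18 to 5.47), Ckap2l 2.35-fold (0.928 to 6.22) and Kntc1 2.17-fold (0.838 to 5.82) higher. The intervals of Ckap2l and Kntc1 hold 1. Mad1l1, Fzr1, Anapc13 and Arl6ip1 were 3.49-, 2.99-, 2.28- and 2.08-fold lower, among them Fzr1, the activator of the anaphase-promoting complex in G1. In the second set Anapc13 was instead 16.0-fold higher in ESC-FCS (6.20 to 52.5), with 33 and 5 molecules, whereas Mad1l1 was again lower, 6.93-fold. Of 84 other G2/M genes compared there, 17 were higher (20.2%) and 24 lower (28.6%), where 19.4% and 35.4% of all genes were. In NSC, 21 of 42 were lower and 4 higher than in ESC-2i, and 18 of 33 lower and 2 higher than in ESC-FCS. The 4 higher than in ESC-2i were Cdc16, Smc1a, Anapc1 and Anapc5, subunits of the anaphase-promoting complex and of cohesin, at 2.08- to 2.96-fold. S-phase genes gave 5 higher and 2 lower of 34 between the ESC populations, 19 of 29 lower in NSC than in ESC-2i and 24 of 27 lower than in ESC-FCS, with none higher. Of the regulators of G2/M transcription, Mybl2, which encodes B-MYB, had 29 molecules in each ESC population and 1 in NSC, where its level was 0.0836 of that in ESC-2i (0.00205 to 0.504) and 0.0515 of that in ESC-FCS (0.00126 to 0.310). Lin37, a subunit of MuvB, was 5.38-fold lower in ESC-FCS than in ESC-2i, with 4 and 35 molecules, and 2.41-fold lower in NSC. Nfyc was 2.63-fold higher in NSC than in ESC-2i (1.11 to 6.30).

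The 3′ ends of the members' transcripts were mostly at annotated ends. Over the 39 members with at least 20 molecules a median of 74.2% of a gene's molecules ended at its most used site, with a range of 38.1% to 100%. By the authors' classes, 56.4% of member molecules ended within 10 bases of an annotated end (57.3% over all genes). Ends in an exon upstream of the terminal one made up 4.05% (95 molecules), against 0.818% over all genes. None of the 2344 member molecules was of the antisense downstream class. Of these members, 7 had a pair of sites with at least 20 molecules each: Ccna2, Ccnb1, Ccnb2, Ube2c, Bub3, Birc5 and Racgap1.

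Ccnb1 has sites 829 nt apart, at chr13:100779569 and chr13:100778740 on the minus strand (GRCm38). The longer form made up 54.5% of 55 molecules in ESC-2i (exact binomial interval 40.6 to 68.0) and 82.1% of 39 in ESC-FCS (66.5 to 92.5). The control cells were at 78.8%, the ESC-FCS pool at 64.7% and the ESC-2i pools at 66.8%, so the pools lay close together between the main populations. Ube2c has sites 40 nt apart on chr2, at 164772860 and 164772900, and its longer form made up 45.6% in ESC-2i (33.5 to 58.1), 67.5% in ESC-FCS (55.9 to 77.8) and 57.1% in NSC. Here the control cells at 65.4% and the ESC-FCS pool at 76.0% lay above the ESC-2i pools at 59.6%, with overlapping intervals. Ccna2, with sites 1110 nt apart, was at 63.3% and 64.9% in the ESC populations. Ccnb2 (100 nt apart) was at 50.0% and 42.4%, and Bub3 (716 nt apart) at 32.0%, 29.4% and 44.4% in NSC. The longer form of Racgap1 (778 nt apart) made up 45.5%, 53.8% and all 7 molecules in NSC, but 13.6% in the ESC-2i pools. The sites of Birc5 lie 14 nt apart, near the window of 12 nt within which sites were merged, and its longer site held all molecules of the second set. No test was made of these shares, since each population was 1 sample.

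**Figure D5:**
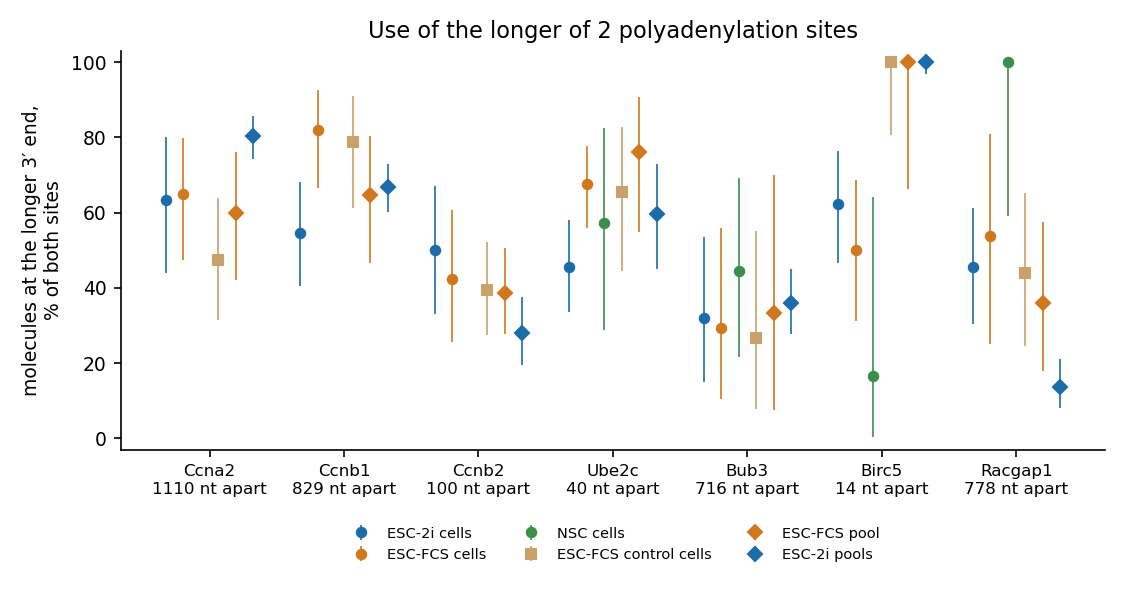
Share of molecules at the longer of 2 polyadenylation sites (vertical axis, percent of both sites, with exact 95% binomial intervals) for the 7 members with 2 sites of at least 20 molecules, in the main populations and the libraries made apart. For Ccnb1 the share is 54.5% in ESC-2i and 82.1% in ESC-FCS, with the ESC-2i pools at 66.8%.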

How the data were processed

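BATSeq libraries of single cells and pools were sequenced by the authors, who aligned reads with GSNAP to GRCm38 and the ERCC sequences, merged unique molecular identifiers at a Hamming distance of at most 1 and sites within 12 nt, and assigned genes with HTSeq. The deposited tables hold counts of molecules, and of reads, per polyadenylation site and per gene. The table of genes differed from the sums over sites in 4 of 2111752 entries. Symbols were matched with GENCODE M21 names. Cells in the table with at least 1000 molecules were kept (33, 33 and 41 of 48), by the labels' populations, with 5342 to 21050, 1079 to 14819 and 1234 to 9037 molecules on genes.

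The members and all gene lists were chosen with earlier results of these data known. Levels are pooled molecules per 10000 molecules on genes with exact 95% Poisson intervals, and ratios have exact conditional binomial intervals. Genes with at least 20 molecules in a pair were compared at 2-fold. A count of 0 was replaced by a floor of 3 counts in the summed group. Variability within a population was tested on cells by the method of Brennecke and colleagues, with median-ratio size factors. On simulated data, unvarying genes at low means were called more often than the nominal rate. Members with at least 20 molecules are described, the 8 with the most also by cell, with members past 2-fold and, from the fixed lists, the 4 largest differences in each direction and genes called variable. Alternatives were the filters, the fold, size factors from DESeq2 1.42.0 and edgeR 4.0.16 (TMM) or ERCC molecules, reads, cells kept, batches, members and pools left out. Those without the highest or shallowest cell, and the ratio relative to the median of all genes, were added after seeing the data. Strand was used in counting, and near-identical copies may share reads. Python 3.11.15 and R 4.3.3 were used.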

Additional observations from a re-analysis of the deposited data

Results flagged for a closer look

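The excess of the summed members in ESC-FCS over ESC-2i in the main single cells was not seen in the libraries made apart. The ratio of ESC-FCS over ESC-2i was 1.48 in the main single cells and 0.930 for the ESC-FCS pool over the ESC-2i pools. It was 0.705 for the ESC-FCS control cells over the ESC-2i pools, which sets single cells against pools. The interval of the ESC-FCS pool (59.9 to 67.4) overlapped that of ESC-2i pool 1 (62.8 to 67.4), so a reversed direction is not claimed. The labels name no replicate cultures, so this difference was not tested, and lysis, clean-up and the day of preparation cannot be told apart from the population.

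Aurka was at a ratio of 0.165 in the second set and 3.48-fold higher in ESC-FCS in the main cells. It had 7 and 15 molecules in the main ESC-2i and ESC-FCS cells and 191 in the ESC-2i pools, and the difference between the sets was not tested.

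Molecules of members were also present in cells left out of the comparisons. The 15 ESC-2i cells left out held 15 member molecules (47.3 per 10000, interval 26.5 to 78.0), the 15 ESC-FCS cells left out held 25 (33.3, 21.6 to 49.2) and the 6 control cells left out held 7 (28.2, 11.3 to 58.1). Of the ESC-FCS cells left out, 2 had at least 1000 molecules but were not in the deposited table of genes.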

How the results depend on the processing

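Of 136 alternative values for the summed members and the counts, 97 stayed the same by the rules used, 39 moved and none was reversed. Of 667 for named members, 633 stayed the same, 32 moved and 2 were reversed. Both reversals were in NSC against ESC-2i with reads in place of molecules, where Incenp had a log2 ratio of 0.45 and Racgap1 0.23. The cause of the changes below was not tested unless the alternative itself sets it, as fewer genes tested or a lower fold does.

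The summed level moved with reads to 28.6 (ESC-2i) and 14.7 (NSC), in batch 1 of ESC-2i to 28.5, in batch 2 of NSC to 11.0, without the highest cell to 28.4 (ESC-2i) and 10.7 (NSC), and without Ube2c to 28.7 (ESC-2i) and 41.8 (ESC-FCS). Per ERCC molecule the ratios were 3.06 (ESC-FCS over ESC-2i), 0.339 (NSC over ESC-2i) and 0.111 (NSC over ESC-FCS). With reads the level in NSC was 0.516 of that in ESC-2i and 0.329 of that in ESC-FCS. In batch 1 NSC was at 0.50 of ESC-2i, and in batch 2 at 0.339. Members past 2-fold between the ESC populations numbered 4 at a minimum of 40 molecules, 24 at 1.5-fold, 28 by ERCC and 13 with reads. For NSC against ESC-2i they numbered 9 at 40 molecules, and for NSC against ESC-FCS 29 at 10, 7 at 40 and 35 with no minimum. In the second set they numbered 19 to 24 with 1 ESC-2i pool left out. The shares of all genes under these alternatives are not listed, apart from those by ERCC molecules given above.

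Genes called variable numbered 115, 193 and 342 (ESC-2i, ESC-FCS, NSC) with no margin, 12, 34 and 51 with a margin of 0.5, and 107, 506 and 1114 with no limit on the mean. They numbered 9 in batch 1 of ESC-2i, and in NSC 27 with cells of at least 2000 molecules, 51 with totals as size factors and 33 in batch 2. Nusap1 in ESC-FCS was called in batch 2 with an adjusted p of 0.000585 in the Brennecke test but not in batch 1, at 0.237, where Cdc20 was called at 0.00821. The spread of the summed members was 5.72 without the highest ESC-2i cell, 2.52 in batch 2 of ESC-FCS and 10.2 with reads in NSC.

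No paired analysis was possible because the cells carry no numbers that pair them across populations. Depth limits single members most in NSC, where 5 members had no molecule.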

Other observations

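Genes of the fixed lists called variable between cells were few beside the members. In the Brennecke test these were Rrm2, which makes deoxynucleotides in S phase, in ESC-2i (91 molecules, adjusted p of 0.0261), and Kif22, Pcna and Tipin in ESC-FCS (adjusted p of 4.94e-06, 0.0233 and 0.0504), of which Kif22 rests on 19 molecules. In NSC it was Mcm2, a subunit of the replicative helicase, with an adjusted p of 0.00107 in the same test and 46 molecules.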
